A study of Mus musculus with 4 samples.

Results

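The genes described here encode the aminoacyl-tRNA synthetases of the cytosol and of mitochondria, a pair of scaffold proteins of the multisynthetase complex, and ATF4 with genes of the amino acid response that it controls. They were chosen by gene symbol from a list of 43 names, of which 41 had a row among the 28141 genes of the table. These were 19 cytosolic synthetases, 14 mitochondrial synthetases, 2 scaffolds and 6 genes of the ATF4 response. The methionyl-tRNA synthetase gene Mars and the glutathione-degrading enzyme gene Chac1 had no row there. All 41 genes passed the filter on low values.

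RNA-seq was done on polyadenylated RNA of leukaemia cells taken from bone marrow of mice of strain C57BL/6 and labelled LSCs. There were 2 libraries from wild-type cells (genotype LSCs-WT, here WT) and 2 from cells in which Ybx1 was conditionally knocked out (genotype LSCs-YBX1cKO, here cKO). Its product, YBX1, is a nucleic acid-binding protein of the Y-box family. The oncogene and Cre driver, the age of the mice and any sort of the cells are not stated in the labels, nor whether replicates came from separate animals, so p-values measure the spread between these libraries, which may be technical. Values are log2 levels, obtained by multiplying the deposited log-scale scores by 0.693, a scale read from how replicates scatter. If the scores were plain log2, each log2 fold change would be 1.44 times as large and each p-value the same. Another reading of that scatter, given with the processing, would make each log2 fold change smaller. The depth is unknown, because the table held no counts.

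The targeted gene was lower in both cKO libraries: Ybx1 measured 9.31 and 9.41 in WT against 8.19 and 8.13 in cKO on the log2 scale, a 2.29-fold fall. In limma, 37.4% of the 15527 genes tested were called at a Benjamini-Hochberg adjusted p under 0.05, with 19.5% higher and 17.8% lower in cKO. Other gene groups moved between the genotypes as well. All 12 mitotic and proliferation genes of a fixed list fell, and their summed level per 1000000 of the library sum was 1230 to 1260 in WT and 511 in both cKO libraries. The library sum itself was 11157952 and 11074317 in WT against 12104617 and 12134026 in cKO. Summed levels per 1000000 are thus lower in cKO, relative to WT, than the log2 levels alone would give. Of 15 neutrophil markers 7 had a row, of which 6 rose and 1 fell, with a summed level per 1000000 of 500 to 535 in WT and 1310 to 1320 in cKO. S100a8, S100a9, Ly6g and Ltf were among the 8 without a row. Of 11 monocyte and macrophage markers 7 were tested and 5 rose, with a summed level of 6650 to 6760 in WT and 10600 in cKO. Most of the rise in this sum came from Lyz2, which rose by 2.25 on the log2 scale from 13.61 in both WT libraries. Adgre1, at 15.81 and 15.83 in WT, rose by 0.09, and Csf1r and Mrc1 were not called. Of 11 T and NK cell markers 3 had a row and all 3 fell, from 155 to 157 in WT to 61.1 to 66.3 in cKO. Of 11 erythroid markers 4 had a row and 3 fell. Of 6 B cell markers only Cd79b had a row, and it rose by 0.26 on the log2 scale. Of 11 myeloid progenitor markers 6 had a row, of which 2 rose, Spi1 by 0.53 and Runx1 by 0.25 on the log2 scale, and none fell. Kit, Cd34, Mpo, Elane and Cebpa were the 5 without a row. The pan-leukocyte gene Ptprc, on the same list, was at 12.07 to 12.13 in all 4 libraries. The part of cell composition and of proliferation in the results below was not tested, and in bulk RNA fewer cells of a type and less RNA per cell cannot be told apart.

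Aminoacyl-tRNA synthetases join each amino acid to its transfer RNA and so supply the ribosome. The cytosol and mitochondria mostly use enzymes of separate genes, but Gars and Kars each encode both forms, and Eprs encodes a fused enzyme for glutamate and proline. Several cytosolic synthetases sit in the multisynthetase complex, held together by the scaffolds AIMP1, AIMP2 and EEF1E1. When amino acids run short, uncharged tRNA activates the kinase GCN2, which phosphorylates eIF2. General translation then slows while the mRNA of the transcription factor ATF4 is translated more. ATF4 binds C/EBP-ATF elements and raises genes for amino acid synthesis, amino acid uptake and tRNA charging. Because this control of ATF4 is largely translational, the level of Atf4 mRNA is not a measure of ATF4 protein.

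The C/EBP-ATF element was looked for because it is the sequence that links synthetase genes to the ATF4 response. Promoters of the listed genes came from RefSeq on GRCm38.p6, and 35 of the 43 names matched an entry, Mars under its current symbol Mars1. Cars, Hars, Lars, Nars, Rars, Vars, Wars and Hars2 matched none and were not searched. The 250 bases before each start site were searched on both strands for TGATGNAA, the core of the element. It was present for 6 of these 35 genes (17.1%), against 3.91% of 27025 genes with a promoter entry. The list was drawn up to include known ATF4 targets, so a higher share follows in part from that choice. Chac1, one of the 6, had no row, and 4 others follow, 5′ to 3′ on the strand of the gene with the match in capitals and 11 bases on each side, or fewer where the start site comes first.
Gars, chr6:55037960-55037989, strand +: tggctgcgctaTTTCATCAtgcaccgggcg
Tars, chr15:11399659-11399684, strand -: caggagtcccgTTGCATCAgctggtt
Asns, chr6:7693214-7693243, strand -: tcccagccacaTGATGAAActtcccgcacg
Nupr1, chr7:126625562-126625591, strand -: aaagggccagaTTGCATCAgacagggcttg
The last base of the match lay 23 bases before the RefSeq start site in Gars, 8 in Tars, 16 in Asns and 103 in Nupr1. The GENCODE M21 annotation starts Asns (7693254) and Nupr1 (126630861) farther upstream, so these windows lie inside the gene by that annotation. Its Tars start (11399665) falls within the Tars window. Tars and Nupr1 held the same 8 letters, in the same orientation. As given below, Gars, Tars and Asns fell in cKO and Nupr1 rose.

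The Y-box itself, searched as CTGATTGG on both strands in the same windows, was shown because YBX1 is named after it, although other factors bind it too. It occurred for 6 of the 35 genes (17.1%) and 4.43% of all genes with an entry: Iars, Iars2, Atf4, Ddit3, Chac1 and Atf5. Of these, Iars2 and Atf5 were not called and Chac1 had no row. Among all 41 genes 25 were called lower and 5 higher, so falls were common in the list as a whole. The 3 called genes with a match, all of them lower, read as follows, with the match in capitals.
Iars, chr13:49682083-49682112, strand +: gatggcacacgCTGATTGGgcgccgcggag
Atf4, chr15:80255097-80255126, strand +: ccacgcctgggCCAATCAGctcgacgcgcg
Ddit3, chr10:127290702-127290731, strand +: cgtgccgctttCTGATTGGtaggctcctgg
The GENCODE M21 start of Iars (49682100) falls within its window. A match in either search is a run of letters and not a measured binding site.

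Most of the listed genes were lower in cKO. Of the 41 genes, 25 fell and 5 rose, against 17.8% lower and 19.5% higher among all genes tested. The median log2 fold change (cKO minus WT) was -0.23, beside 0.003 for all tested genes. Both cKO libraries lay below both WT libraries for 29 of the 41 genes and above them for 7. Among all tested genes the groups did not overlap for 65.1%, 32.4% below and 32.7% above. Well-expressed genes were called more often: 70.9% of the 4047 tested genes at a mean log2 level of 9 or more were called (42.2% higher, 28.8% lower). Of the 26 listed genes above that level, a bound chosen after the values were seen, 20 fell (76.9%) and 5 rose (19.2%). Most of these changes were small: a log2 fold change of at least 0.5 was reached by 8 called genes, 6 lower and 2 higher, or 19.5% of the 41, against 17.6% of all tested genes. When limma's prior variance was held constant across levels, 6 of the genes passed as lower and 2 as higher, where 14.6% of all tested genes were called.

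**Figure D1:**
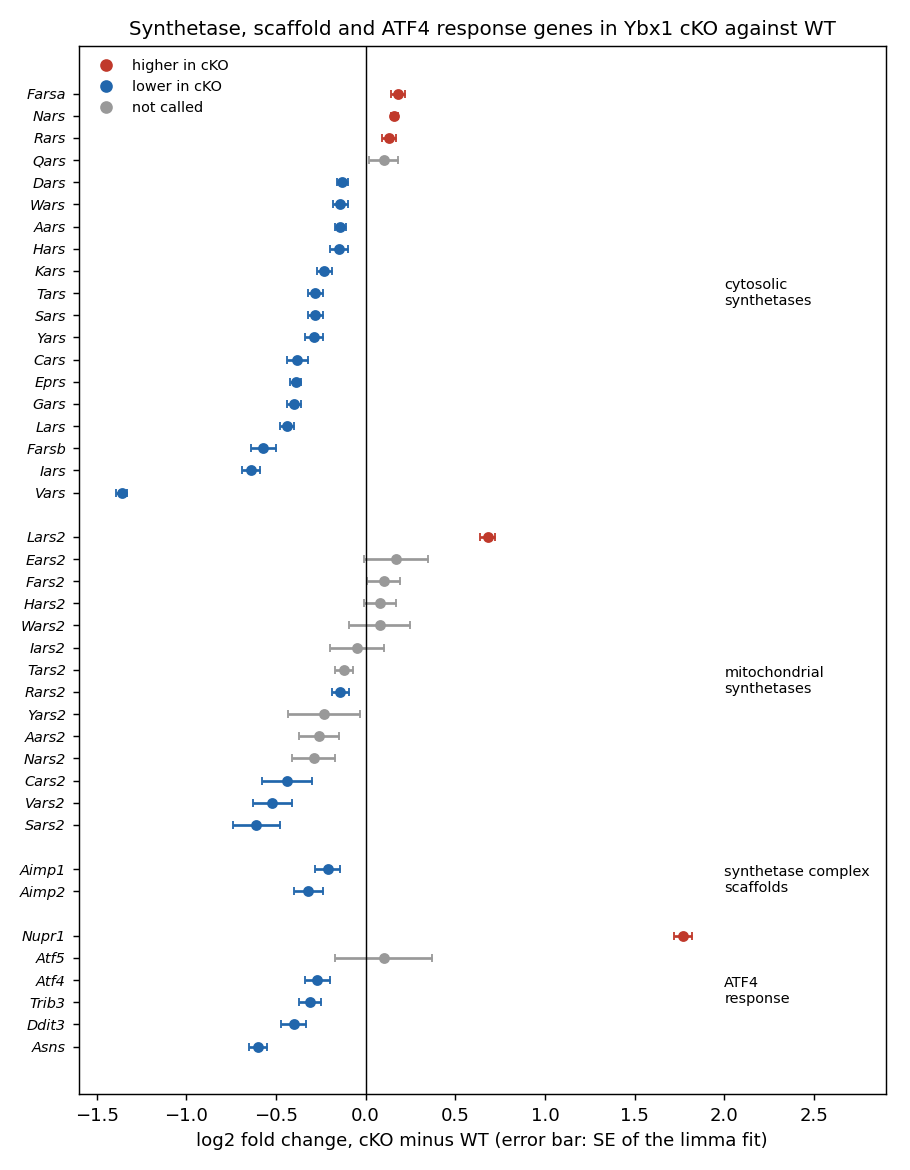
Log2 fold change (cKO minus WT, x axis) of the 41 genes, grouped by role and ordered by size, with bars for the SE of the limma fit and colours for calls at an adjusted p under 0.05. Most points of the cytosolic synthetases lie left of 0, with Vars at -1.36 farthest left, and Nupr1 at 1.77 lies farthest right.

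Among the cytosolic synthetases 15 of 19 fell (78.9%), 3 rose (15.8%) and 1, Qars, did not pass. Of all tested genes 17.8% were lower and 19.5% higher. All of these synthetase genes but Qars had a mean log2 level above 9, where 28.8% of tested genes were lower and 42.2% higher. Their median log2 fold change was -0.28, and their summed level per 1000000 was 5160 to 5170 in WT and 4080 to 4110 in cKO. Part of the drop in this sum comes from the larger library sum in cKO, which the log2 fold changes do not divide by. Per kilobase of merged exons, the asparaginyl enzyme gene Nars had the highest level (log2 level per kilobase 11.32) and the glutaminyl enzyme gene Qars the lowest (5.99).

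The valyl-tRNA synthetase gene Vars had the largest fall. Its log2 level was 12.35 in WT replicates 1 and 2 alike, against 10.98 and 10.99 for cKO. That is a 2.58-fold fall (log2 fold change -1.36 with SE 0.03, limma adjusted p = 1.1e-19), and the groups lay far apart compared with the replicates. It ranked 198 by size among the 2768 genes called lower. Vars lies on chromosome 17 from 35000987 to 35016322 in GRCm38. No other synthetase gene reached a 2-fold change.

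The next largest falls were in genes for the isoleucyl and phenylalanyl enzymes. Iars measured 10.65 and 10.63 in WT against 9.95 and 10.05 in cKO. This was a 1.56-fold fall (log2 fold change -0.64 with SE 0.05, limma adjusted p = 3.8e-10). Farsb, the beta subunit of phenylalanyl-tRNA synthetase, measured 9.76 and 9.67 in WT against 9.15 and 9.14 in cKO, a 1.48-fold fall (limma adjusted p = 1.4e-07). Farsa encodes the alpha subunit of the same enzyme, and its level was 11.19 in both WT libraries and 11.36 and 11.37 in cKO, a log2 fold change of 0.18 (SE 0.04, limma adjusted p = 0.00055). The subunits of this enzyme thus went in opposite directions at the mRNA level, but after quantile normalization the rise of Farsa was 0.08 on the log2 scale and did not pass (adjusted p = 0.095), while the fall of Farsb still did.

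Leucyl, glycyl and glutamyl-prolyl synthetase genes fell by similar amounts. Lars measured 11.11 and 11.09 in WT against 10.64 and 10.68 in cKO (log2 fold change -0.44 with SE 0.04). Gars measured 11.24 and 11.30 in WT against 10.84 and 10.88 in cKO (log2 fold change -0.40 with SE 0.04). Eprs measured 12.19 and 12.23 in WT against 11.84 and 11.80 in cKO (log2 fold change -0.39 with SE 0.03). For each of the 3 the cKO libraries lay below both WT libraries, by more than the replicates differed.

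A middle set comprised the cysteinyl enzyme gene Cars (log2 fold change -0.38), the tyrosyl gene Yars (-0.29), the seryl gene Sars (-0.28), the threonyl gene Tars (-0.28) and the lysyl gene Kars (-0.23). Kars has a processed pseudogene, Kars-ps1, in the annotation, so some of its reads may be uncertain. Only pseudogenes named after the gene were looked for, so other listed genes may have pseudogenes too. The smallest falls that passed were those of the histidyl gene Hars (-0.15), the alanyl gene Aars (-0.14), the tryptophanyl gene Wars (-0.14) and the aspartyl gene Dars (-0.13). Wars is known to be induced by interferon. Exons of Aars overlap those of Exosc6 on the same strand over 14.3% of their length, and those of Hars overlap Hars2 on the opposite strand over 8.0%. Dars, for example, measured 12.44 and 12.38 in WT against 12.31 and 12.24 in cKO, so its groups did not overlap but came within 0.1 of each other. All 4 of these small calls were lost when each library was centred on its median, for Aars at an adjusted p of 0.081, Dars 0.086, Wars 0.14 and Hars 0.24 (limma). Hars also did not pass with WT replicate 1, WT replicate 2 or cKO replicate 2 left out (adjusted p = 0.076, 0.19 and 0.22).

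Beside Farsa, the genes for the asparaginyl and arginyl enzymes rose slightly. Nars measured 13.38 and 13.34 in WT against 13.53 and 13.51 in cKO (log2 fold change 0.16 with SE 0.02, limma adjusted p = 1e-05), but quantile normalization turned this into a fall (log2 fold change -0.13, adjusted p = 1.9e-05). Rars measured 11.23 and 11.18 in WT against 11.28 and 11.40 in cKO (log2 fold change 0.13 with SE 0.04). It did not pass under quantile normalization (adjusted p = 0.61), nor with WT replicate 2 or cKO replicate 2 left out (adjusted p = 0.11 and 0.27). Qars measured 8.67 and 8.64 in WT against 8.77 and 8.75 in cKO, with a log2 fold change of 0.10 (SE 0.08) that did not pass (limma adjusted p = 0.36). With median centring all 3 rises were larger and kept their call (log2 fold change 0.24 for Farsa, 0.22 for Nars and 0.20 for Rars). The direction of the 3 rises thus depended on the scaling, or their call did.

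Splits of the cytosolic enzymes by known properties gave falls on each side. Synthetases belong to a pair of unrelated structural classes. Of the class I enzymes 6 of 8 fell and 1 rose (median log2 fold change -0.33), and of the class II enzymes 8 of 10 fell and 2 rose (median -0.19). Eprs, which joins one of each class, was counted in neither. Of the synthetases in the multisynthetase complex 5 of 7 fell and 1 rose (median -0.23), and outside it 10 of 12 fell and 2 rose (median -0.28). Of those generally known as ATF4 targets 10 of 11 fell and 1, Nars, rose (median -0.29), and of the others 5 of 8 fell and 2 rose (median -0.14), with Vars, the largest fall, among the others. For all tested genes the shares were 17.8% lower and 19.5% higher. No difference between these splits was tested.

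Both scaffold genes of the complex were lower in cKO. Aimp1 stood at 9.03 and 9.10 in WT and at 8.85 in both cKO libraries (log2 fold change -0.21 with SE 0.07, limma adjusted p = 0.027). Aimp1 no longer passed with either WT replicate left out (adjusted p = 0.061 and 0.22, for replicates 1 and 2), nor under quantile normalization (0.051) or median centring (0.13). Aimp2 measured 8.88 and 8.82 in WT against 8.49 and 8.56 in cKO (log2 fold change -0.32 with SE 0.08, limma adjusted p = 0.0028). Of the merged exons of Aimp2, 29.4% overlap those of Eif2ak1 on the opposite strand, and Eif2ak1 rose. No source used here states whether reads were counted by strand, so those of the pair may be mixed.

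Mitochondrial synthetase genes showed fewer calls. Of 14, 4 fell, 1 rose and 9 did not pass, a called share of 35.7% beside 37.4% of all tested genes. Their median log2 fold change was -0.13. They were also expressed at lower levels: the median log2 level per kilobase was 5.46, against 8.87 for the cytosolic set, and the median SE of the log2 fold change was 0.12 against 0.04. The difference in change between the sets was not tested.

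**Figure D2:**
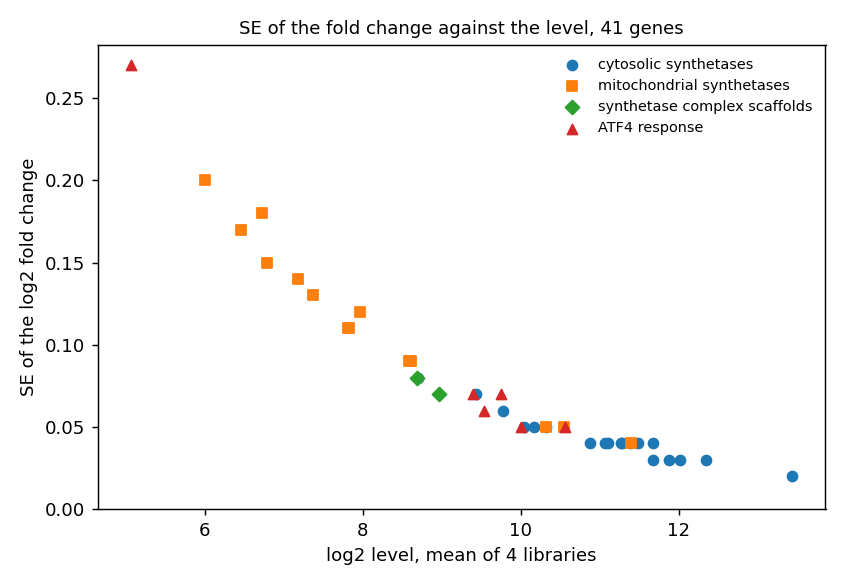
SE of the log2 fold change (y axis) against the mean log2 level over 4 libraries (x axis) for the 41 genes, with a marker shape per group. SEs run from 0.02 for Nars, the gene with the highest level, to 0.27 for Atf5, the lowest, and most mitochondrial synthetases lie to the upper left of the cytosolic ones.

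The mitochondrial leucyl enzyme gene Lars2 was the one that rose. Its level was 11.10 and 11.01 in WT and 11.73 and 11.75 in cKO, a 1.60-fold rise (log2 fold change 0.68 with SE 0.04, limma adjusted p = 8.2e-13). Lars2 lies on chromosome 9 from 123366927 to 123462666 in GRCm38. Its cytosolic counterpart Lars fell, as given above.

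The seryl, valyl and cysteinyl genes had the largest falls among the mitochondrial enzymes. Sars2 measured 7.69 and 7.66 in WT against 7.01 and 7.12 in cKO (log2 fold change -0.61 with SE 0.13, limma adjusted p = 0.00039). Vars2 measured 8.16 and 8.0 in WT against 7.65 and 7.47 in cKO (log2 fold change -0.52 with SE 0.11, limma adjusted p = 0.00062). So the valyl genes of both compartments fell, Vars by more. Cars2 measured 7.31 and 7.48 in WT against 6.87 and 7.04 in cKO (log2 fold change -0.44 with SE 0.14, limma adjusted p = 0.016). With WT replicate 2 or cKO replicate 1 left out it did not pass (adjusted p = 0.19 and 0.063).

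Rars2, the mitochondrial arginyl enzyme gene, had a small fall (log2 fold change -0.14, limma adjusted p = 0.033). It did not pass with WT replicate 1, WT replicate 2 or cKO replicate 2 left out (adjusted p = 0.19, 0.072 and 0.23) or with median centring (0.25). Tars2 (log2 fold change -0.12, adjusted p = 0.059), Aars2 (-0.26, adjusted p = 0.061) and Nars2 (-0.29, adjusted p = 0.064) came close to the threshold in limma without passing it. Without cKO replicate 2, Nars2 passed (log2 fold change -0.52, adjusted p = 0.00015) and so did Tars2 (-0.18, adjusted p = 0.0057). Nars2 measured 8.14 and 8.08 in WT against 7.59 and 8.04 in cKO, so cKO replicate 1 alone stood well below the rest.

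The other 6 mitochondrial genes had values from -0.23 (SE 0.20) for Yars2 to 0.17 (SE 0.18) for Ears2. Iars2 had the smallest difference, with 6.78 and 6.83 in WT and 6.72 and 6.80 in cKO. The exons of Iars2 overlap those of Rab3gap2 on the opposite strand over 22.9% of their length. Wars2 measured 6.38 and 6.46 in WT against 6.53 and 6.46 in cKO, with an SE of 0.17 for the difference. At these levels changes of this size were not detectable. Ears2, the glutamyl enzyme, differed within cKO (7.12 and 6.49) by more than between the genotypes, and passed without cKO replicate 2 (log2 fold change 0.49, adjusted p = 0.022).

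In the ATF4 response 4 of 6 genes fell, 1 rose and 1 did not pass, with a median log2 fold change of -0.29. Atf4 itself measured 9.47 and 9.60 in WT against 9.18 and 9.35 in cKO (log2 fold change -0.27 with SE 0.07, limma adjusted p = 0.0044). The groups did not overlap, but the gap between them was smaller than the difference between the cKO replicates. Without WT replicate 2 the log2 fold change was -0.20 and did not pass (adjusted p = 0.088), nor did it with no filter on low values (adjusted p = 0.13). Atf4 lies on chromosome 15 from 80255184 to 80257541 in GRCm38.

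Asns, the asparagine synthetase that makes asparagine from aspartate and is a standard ATF4 target, fell most. It measured 10.85 and 10.87 in WT against 10.23 and 10.29 in cKO. This was a 1.51-fold fall (log2 fold change -0.60 with SE 0.05, limma adjusted p = 2.5e-10). The replicates of each genotype lay close together beside this gap. Its promoter is among those shown above.

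The genes of the later, stress-linked arm fell by less. Ddit3, which encodes the C/EBP homologous protein CHOP, measured 10 and 9.90 in WT against 9.66 and 9.45 in cKO (log2 fold change -0.40 with SE 0.07, limma adjusted p = 3.5e-05). Its exons share 68 bases with those of Mars on the opposite strand. Trib3, a pseudokinase that feeds back on ATF4 and CHOP, measured 9.69 and 9.70 in WT against 9.36 and 9.41 in cKO (log2 fold change -0.31 with SE 0.06, limma adjusted p = 0.00032). Neither gene lost its call when any 1 library was left out.

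Nupr1, which encodes a small stress-induced chromatin protein, went the other way. Its level was 9.11 and 9.12 in WT and 10.87 and 10.90 in cKO. This 3.41-fold rise (log2 fold change 1.77 with SE 0.05, limma adjusted p = 3.8e-18) was the largest change of the 41 genes and ranked 53 by size among the 3035 genes called higher. Nupr1 lies on chromosome 7 from 126623249 to 126630861 in GRCm38. Atf5, a relative of ATF4 that is also controlled by translation, was the least expressed of the genes and did not pass, at 5.01 and 5.02 in WT and 5.28 and 4.95 in cKO (log2 fold change 0.10 with SE 0.27, limma adjusted p = 0.81).

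**Figure D3:**
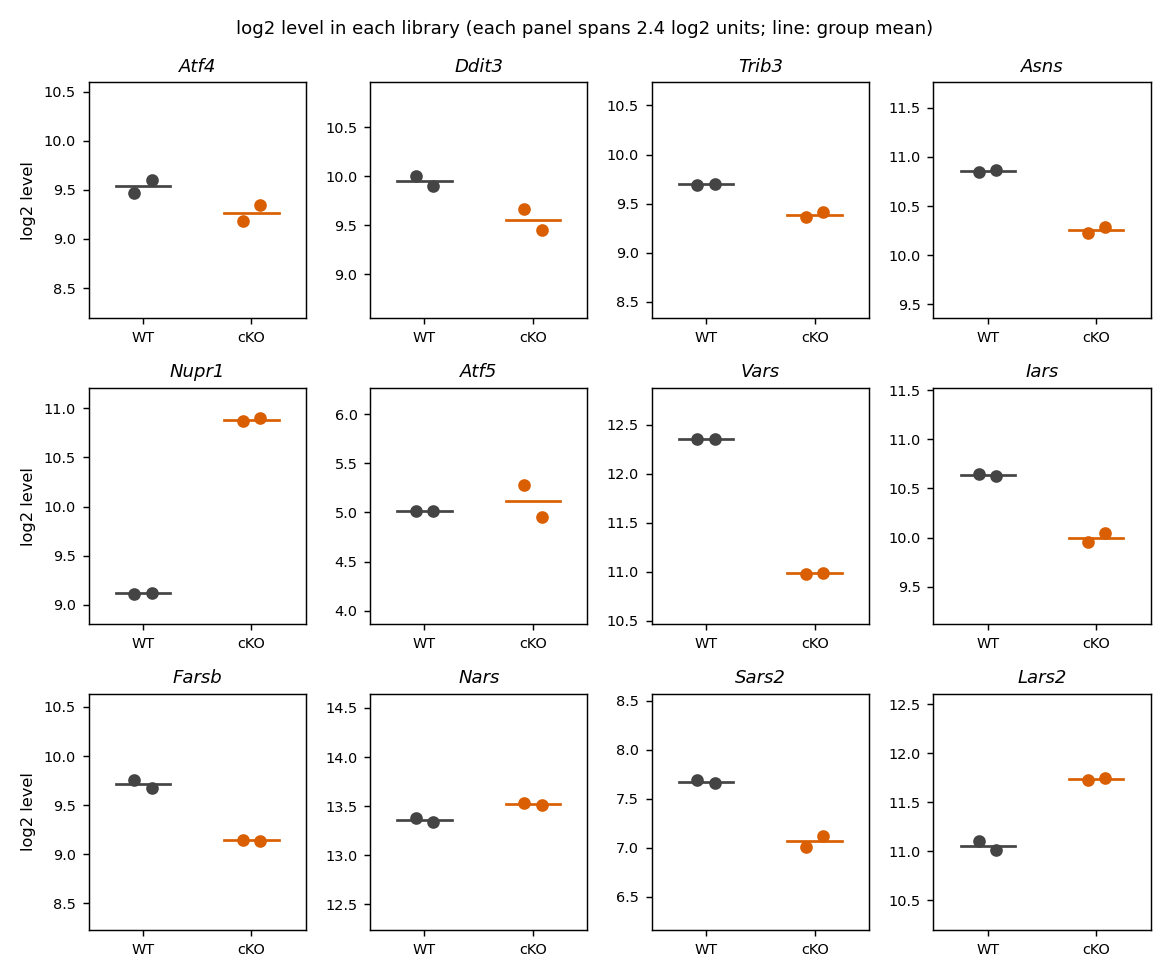
Log2 level (y axis) of 12 of the genes in each of the 4 libraries, as points, with a line at each group mean; every panel spans 2.4 log2 units. Vars drops from 12.35 to 10.98 and 10.99 and Nupr1 climbs from 9.11 and 9.12 to 10.87 and 10.90, while the Atf4 groups lie close together and those of Atf5 overlap.

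Other genes of the pathway were read from 6 further lists, in which 64 distinct genes were tested. Of these 27 fell (42.2%) and 13 rose (20.3%), beside 17.8% lower and 19.5% higher among all tested genes, so the share that rose was near that of all genes. Genes for making amino acids showed the most falls: 8 of 11 fell (72.7%) and the other 3 did not pass, with a median log2 fold change of -0.45. Phgdh, the first enzyme of serine synthesis, stood at 12.79 in both WT libraries and at 11.71 and 11.74 in cKO, a log2 fold change of -1.06 (SE 0.03). The next step, Psat1, had -0.79 (SE 0.04), the proline synthesis gene Pycr1 had -0.65 (SE 0.17) and the mitochondrial serine hydroxymethyltransferase gene Shmt2 had -0.59 (SE 0.05). The largest limma adjusted p of these 4 was 0.0043, for Pycr1.

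Amino acid transporters of the response mostly fell, with 6 of 9 tested genes lower (66.7%) and 2 higher (22.2%), and a median of -0.42. For all tested genes the shares were 17.8% lower and 19.5% higher. The glycine transporter gene Slc6a9 had a log2 fold change of -0.86 (SE 0.27, limma adjusted p = 0.013), the neutral amino acid transporter genes Slc1a4 and Slc1a5 had -0.63 (SE 0.14) and -0.49 (SE 0.04), and Slc7a5, the light chain of the leucine transporter LAT1, had -0.58 (SE 0.19, adjusted p = 0.016). With WT replicate 2 left out, neither Slc6a9 nor Slc7a5 passed (adjusted p = 0.18 and 0.17), nor did Slc6a9 with cKO replicate 1 left out (0.066) or Slc7a5 with cKO replicate 2 left out (0.051). The 2 that rose, named after their values were seen, were the cystine transporter gene Slc7a11 (log2 fold change 0.45 with SE 0.03) and its heavy chain Slc3a2 (0.16, SE 0.03), but after quantile normalization Slc3a2 missed the threshold (log2 fold change 0.05, adjusted p = 0.13). SLC3A2 is the heavy chain of SLC7A5 as well.

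The upstream part of the pathway moved in both directions, where 17.8% of all tested genes were lower and 19.5% higher. Of 16 genes for the eIF2 kinases, their regulators, eIF2, the exchange factor eIF2B and the eIF2 phosphatase, 6 fell (37.5%) and 4 rose (25%), with a median of -0.05. Impact, which encodes an inhibitor of GCN2 activation, rose most, from 10.80 in both WT libraries to 11.94 and 11.98 in cKO (log2 fold change 1.16 with SE 0.04, limma adjusted p = 1.1e-17). The haem-regulated kinase gene Eif2ak1 rose by 0.38 (SE 0.07). The eIF2B subunit genes Eif2b3 and Eif2b5 had log2 fold changes of -0.36 (SE 0.05) and -0.40 (SE 0.15), and Eif2b5 did not pass with WT replicate 2 or cKO replicate 1 left out (adjusted p = 0.34 and 0.061) or under either other scaling (adjusted p = 0.087 with quantile normalization and 0.075 with median centring). Eif2ak4, the gene of GCN2, missed the threshold (log2 fold change -0.39 with SE 0.20, limma adjusted p = 0.13).

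Among other partners of the synthetases 4 of 10 fell (40%) and 1 rose (10%), with a median of -0.20. Of all tested genes 17.8% were lower and 19.5% higher. The D-aminoacyl-tRNA deacylase gene Dtd1 had a log2 fold change of -0.47 (SE 0.07), the third scaffold Eef1e1 -0.22 (SE 0.06) and the mitochondrial methionyl enzyme gene Mars2 -0.27 (SE 0.11), while Gatc, part of the amidotransferase that completes mitochondrial glutaminyl-tRNA, rose by 0.34 (SE 0.10). Eef1e1 did not pass with WT replicate 1 left out (adjusted p = 0.074), nor Gatc with WT replicate 2 or cKO replicate 1 left out (adjusted p = 0.097 and 0.10). Mars2 passed neither with WT replicate 1, WT replicate 2 or cKO replicate 1 left out (adjusted p = 0.11, 0.27 and 0.11) nor under either other scaling (0.12 with quantile normalization and 0.13 with median centring).

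Factors that pair with ATF4 gave 3 calls among 8 tested genes (37.5%, beside 37.4% of all tested genes), and each was lost when some single libraries were left out. Atf3 had a log2 fold change of -1.36 (SE 0.48, limma adjusted p = 0.028) at the low levels of 3.06 and 2.96 in WT and 1.11 and 2.19 in cKO, and lost its call without WT replicate 1, WT replicate 2 or cKO replicate 1 (adjusted p = 0.14, 0.10 and 0.23). Cebpg rose by 0.51 (SE 0.19), lost without WT replicate 1, WT replicate 2 or cKO replicate 2 (adjusted p = 0.19, 0.057 and 0.33). Fos rose by 0.43 (SE 0.15), lost without WT replicate 2 or cKO replicate 1 (adjusted p = 0.21 and 0.11). Of 10 other ATF4 targets tested, 4 rose (40%) and 2 fell (20%), with a median of 0.10. Of all tested genes 19.5% were higher and 17.8% lower. The oxidative folding gene Ero1l fell by 0.63 on the log2 scale (SE 0.03). The endoplasmic reticulum stress gene Herpud1 rose by 0.45 (SE 0.04) and the autophagy receptor gene Sqstm1 by 0.35 (SE 0.02). After quantile normalization the rise of Sqstm1 was only 0.07 (limma adjusted p = 0.01) and that of Herpud1 0.35. With the prior variance held constant across levels, neither rise passed (limma adjusted p = 0.059 for Sqstm1 and 0.058 for Herpud1). Gadd45a rose by 0.44 (SE 0.16), and its call was lost without WT replicate 1, WT replicate 2 or cKO replicate 1 (adjusted p = 0.072, 0.15 and 0.12).

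**Figure D4:**
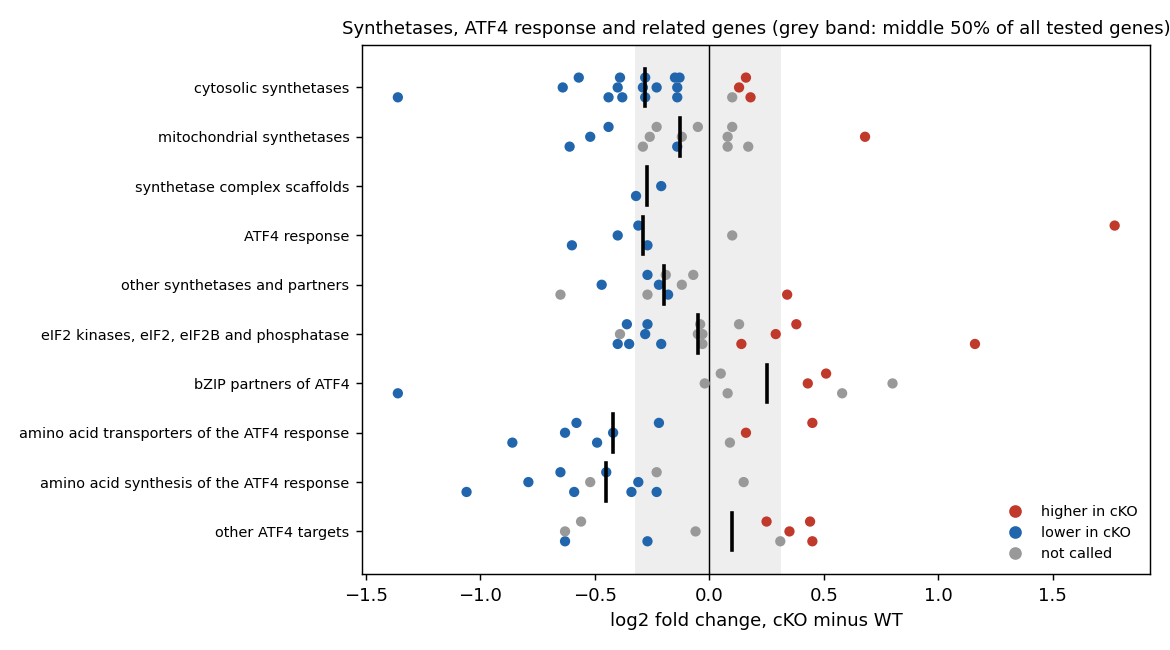
Log2 fold change (cKO minus WT, x axis) of each tested gene in the 4 groups described first and in the 6 further lists of the pathway, coloured by call, with a black bar at each median and a grey band over the middle 50% of all tested genes. The medians of amino acid synthesis (-0.45) and transporters (-0.42) lie left of the band, and those of ATF4 partners (0.25) and other ATF4 targets (0.10) lie right of 0.

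Myc, whose protein also acts on synthetase genes, stood at 12.95 in both WT libraries and at 12.07 and 12.12 in cKO (log2 fold change -0.86 with SE 0.03). Its part in the changes above was not tested.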

How the data were processed

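The deposited table held 1 score per gene symbol and library (-3.19 to 27.9), on a log scale whose base and transformation are not given in the sources used here. The submitters' processing notes name GRCm38 and the tools HISAT2 2.1.0, featureCounts, DESeq2 and CASAVA, without saying which step each did. Columns matched samples by title, and 0 were left out. The scores were multiplied by 0.693. With this factor the noise between replicates at scores of 5 to 16 was a median 1.1 times Poisson noise in WT and 1.31 times in cKO, against 4.85 and 5.94 times for plain log2. Poisson noise here takes the back-transformed level as a count, which is an assumption. The slope of the noise put a doubling at a score step of 1.62 for WT libraries and 1.59 for cKO libraries, not 1.44. By that reading each log2 fold change would be smaller than given, in the same direction. Which reading is right was not tested. The unit differs from counts, so limma 3.58.1 (R 4.3.3; lmFit, then eBayes with trend set, two-sided) was fitted on the 15527 genes whose score reached 1 in 2 or more libraries, with Benjamini-Hochberg adjustment over all of them. The test was checked on simulated data in which few genes changed and the noise followed the level, as the fit assumes. That check thus does not cover the large share of genes called here or the assumption itself. No single gene can pass an exact permutation test with 2 libraries against 2, where the smallest p is 0.33.

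The genes and lists were chosen with earlier results of these data known. Values per library are given for all ATF4 response genes, both scaffolds, and the cytosolic (6) and mitochondrial (4) synthetases with the largest called changes and the 2 smallest of each; the 4 largest called changes, or fewer, are named per further list. Values of other genes, among them Farsa, Nars, Rars, Nars2, Slc7a11 and Slc3a2, were added after they were seen. Positions come from GENCODE M21 on GRCm38. Tables and plots were made in Python 3.11.15 (numpy 2.4.6, pandas 2.3.3, matplotlib 3.10.9). One promoter window is not reported here.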

Additional observations from a re-analysis of the deposited data

How the results depend on the processing

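All alternatives used limma. Of the 30 called genes, 8 kept their direction and call in all 11 refits. Letting the prior variance ignore the level left 2 genes higher and 6 lower in all (cytosolic synthetases 0 and 4, also 0 higher at an unadjusted p under 0.05; mitochondrial 1 lower; ATF4 response 1 lower; other pathway genes 2 higher and 8 lower). Requiring a log2 fold change of at least 0.5 left 2 higher and 6 lower (cytosolic 0 and 3, mitochondrial 2 lower, ATF4 response 1 lower, other pathway genes 2 and 9), fewer by construction. Under quantile normalization 2 genes were higher in all and 0 among the cytosolic synthetases (1 at an unadjusted p under 0.05), and Nars turned to -0.13. With no filter on low values, 2 mitochondrial synthetases were lower and 7 other pathway genes higher. At an adjusted p under 0.01, 2 mitochondrial synthetases were lower. Leaving out 1 library gave 4 to 5 genes higher and 20 to 25 lower in all, 1 to 2 mitochondrial synthetases higher and 2 to 5 lower, and 8 to 12 other pathway genes higher and 16 to 24 lower. The lowest counts of pathway genes, 8 and 16, were without WT replicate 2, and so were 2 of the lower mitochondrial synthetases. Among genes that had not passed, the sign turned for Iars2 (0.01 with quantile normalization, 0.02 with median centring), Ears2, Atf5 and Fars2 when 1 library was left out (ranges -0.14 to 0.49, -0.06 to 0.27 and -0.01 to 0.21), for Ears2 and Atf5 without cKO replicate 1 and for Fars2 without WT replicate 1. The cause was not tested. With the replicate number as a block, 27 genes were lower and 5 higher, and 6 mitochondrial synthetases lower, with Nars2 and Tars2 added; same-numbered libraries shared deviations little (correlation 0.0127 over 15527 genes), so the numbers are not taken to pair them. Depth is unknown.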

Other observations

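The genes next to the listed ones with the largest changes were read after those changes were seen, as the 3 nearest tested genes on each side in GENCODE M21. On one side of Nupr1, 3 neighbours within 37.4 kb rose too: the lysosomal membrane gene Cln3 (log2 fold change 1.41, SE 0.05), the apolipoprotein B receptor gene Apobr (1.34, SE 0.05) and the cytokine subunit gene Il27 (1.40, SE 0.17), the last with a limma adjusted p of 2.4e-07. On the other side Sgf29 had a log2 fold change of -0.31 (SE 0.10, limma adjusted p = 0.012), and 2510046G10Rik and Sult1a1 did not pass.

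Around Vars the neighbours went both ways. Msh5, a meiotic gene 12.3 kb away, rose by 1.89 (SE 0.14, limma adjusted p = 9.5e-11). Lsm2, an RNA-binding gene 15.1 kb away, was lower (log2 fold change -0.35, SE 0.08). The other 4 did not pass. Around Lars2, only Exosc7 of the 6 neighbours was called, with a log2 fold change of -0.14 (SE 0.05, limma adjusted p = 0.034).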
